A study of Mus musculus with 8 samples.

Results

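The erythroid transcription factors examined here are 8 genes whose products set up the red cell programme: Gata1, Klf1, Zfpm1, Tal1, Gfi1b, Nfe2, Ldb1 and Cbfa2t3. The members are these genes by name, and every array probe set annotated to 1 of them alone was taken. This gave 12 probe sets, of which 11 carried values and 1, a Cbfa2t3 probe set, was listed at 0 on all arrays. The whole series gave 24404 measured probe sets and 10720 genes to test. LSK cells are the bone marrow cells sorted for Kit and Sca-1 and against markers of mature lineages, and they include blood stem cells and the multipotent progenitors closest to them. Their total RNA was hybridised to Affymetrix mouse arrays, 4 from normal (WT) mice, called control, and 4 from mice with a conditional knockout of Msi2 (Msi2 KO), the gene of the RNA-binding protein Musashi-2. The comparison asks how expression in these cells differs with the knockout. The sources used here do not give what drives the conditional deletion, nor the age and sex of the mice.

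GATA1 is a zinc finger protein that binds GATA sites in red cell, megakaryocyte and mast cell genes, and its cofactor FOG1, the product of Zfpm1, binds GATA1 and not DNA. TAL1, with an E protein, LMO2 and the linker LDB1, joins GATA1 on DNA in 1 complex, and the corepressor ETO2 (Cbfa2t3) sits on the same complex. KLF1 binds CACC boxes in globin and other red cell genes, GFI1B is a repressor that recruits the histone demethylase LSD1, and NF-E2 (Nfe2) binds the globin control region with a small MAF partner. In stem and progenitor cells GATA2 occupies many of the sites that GATA1 takes over in red cell precursors.

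The start regions of the 4 factors with the largest differences between the groups are shown because GATA and CACC sites are what members of this set bind. Each is the 250 bases before the annotated start from RefSeq (GRCm38.p6), read 5′ to 3′ on the strand of the gene, with capitals marking a GATA motif or a CACC motif. The positions are chrX:7967911-7968160 on the minus strand for Gata1, chr8:84901732-84901981 on the plus strand for Klf1, chr8:122281891-122282140 on the plus strand for Zfpm1 and chr2:28621983-28622232 on the minus strand for Gfi1b.
Gata1: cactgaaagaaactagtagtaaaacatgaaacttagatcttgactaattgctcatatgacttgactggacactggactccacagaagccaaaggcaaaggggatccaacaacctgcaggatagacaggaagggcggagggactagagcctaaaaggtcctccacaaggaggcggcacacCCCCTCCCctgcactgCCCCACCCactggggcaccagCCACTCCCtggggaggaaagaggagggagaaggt
Klf1: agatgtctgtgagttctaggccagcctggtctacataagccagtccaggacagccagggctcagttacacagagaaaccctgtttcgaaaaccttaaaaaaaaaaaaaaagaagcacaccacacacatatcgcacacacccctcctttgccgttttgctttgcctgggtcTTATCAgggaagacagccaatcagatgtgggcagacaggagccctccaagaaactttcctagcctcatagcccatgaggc
Zfpm1: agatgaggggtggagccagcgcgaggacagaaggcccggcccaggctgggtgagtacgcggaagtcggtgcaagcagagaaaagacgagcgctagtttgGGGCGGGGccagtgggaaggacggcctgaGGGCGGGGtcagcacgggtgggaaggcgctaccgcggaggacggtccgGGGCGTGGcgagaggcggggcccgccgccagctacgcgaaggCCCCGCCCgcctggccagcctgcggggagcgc
Gfi1b: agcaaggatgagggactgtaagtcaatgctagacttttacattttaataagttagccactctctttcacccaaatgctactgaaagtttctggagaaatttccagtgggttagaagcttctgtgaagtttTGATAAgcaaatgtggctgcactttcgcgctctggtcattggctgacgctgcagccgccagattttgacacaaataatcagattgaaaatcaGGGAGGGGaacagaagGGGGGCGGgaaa

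The GATA motif was searched as AGATAA or as AGATAG, with a T in first place as TGATAA or as TGATAG, and the CACC motif as CCNCNCCC, both on either strand, with overlapping matches counted separately. Gata1 held 3 CACC motifs, at 71, 55 and 34 bases before the start, and 0 GATA motifs. Klf1 held 1 GATA motif at 80 bases and 0 CACC motifs, Zfpm1 held 4 CACC motifs between 151 and 32 bases, and Gfi1b held a GATA motif at 120 bases with CACC motifs at 28 and 12. Of the 32851 promoters in the table, 26.5% held a GATA motif and 45.9% a CACC motif in the same window. These matches are common letters and do not show that a factor binds there. RefSeq entries were found for 7 of the 8 factors (11 start regions). Among the other start regions, 1 of Tal1 (chr4:115056176-115056425, plus strand) held a GATA motif 205 bases before its start, and 1 of Ldb1 (chr19:46037071-46037320, minus strand) held GATA motifs at 240 and 200 bases. A start region of Cbfa2t3 (chr8:122699110-122699359, minus strand) held a GATA motif at 118 bases.

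Some arrays stood apart, and this touches the values below. The first principal component, with 28.6% of the variance, placed Msi2 KO 3 at 69.4 and the others between -39.4 and 17.0. Msi2 signal on the KO arrays 1 to 4 was 72.6%, 63.4%, 15.1% and 40.5% of the mean of the controls (4 bright probe sets), and the controls themselves ran from 91.1% to 111%. The loss of Msi2 RNA signal was therefore uneven among the KO arrays, and the sources used here do not say whether the probes lie in the deleted part. By Xist, the RNA that coats a silenced X, 3 arrays were low (control 1 with Msi2 KO 1 and 2) and 5 high, so each class holds arrays of both groups. Of the gate genes, Kit was measured (KO minus control 0.34 on the log2 scale, limma adjusted p 0.585) and Ly6a was not analysed here. Of 11 genes of mature lineage markers, 8 were listed at 0, among them Cd3e, Cd4, Cd8a, Ms4a1 and Itgam, and the only measured one, the pan-leukocyte gene Ptprc, was lower in KO (-0.44, adjusted p 0.475).

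No member probe set passed the threshold of 0.05 on the adjusted p (limma, Benjamini-Hochberg over all probe sets), with 0 of 11 against 0.0% of all 24404 probe sets, where 2371 had an unadjusted p under 0.05. 4 factors, Gata1, Klf1, Zfpm1 and Gfi1b, had means in KO that were 1.94-fold to 3.06-fold those of control, while Tal1, Ldb1, Nfe2 and Cbfa2t3 on their brightest probe sets lay between 1.04-fold and 1.29-fold. These 4 are the member probe sets that were higher in KO at an unadjusted p under 0.05, 4 of 11 against 4.87% of all probe sets. In the other direction the count was 0 of 11, against 4.84%. On 1 of 11 every KO array lay above every control array (3.12% of all probe sets), and on 0 of 11 below (2.96%). 10 of 11 had a higher mean in KO, where 50.1% of all probe sets did. The median log2 difference was 0.25 over the 11 member probe sets and 0.00 over all probe sets. The members were picked with earlier results of these arrays known, so these counts describe them and are no test of the group. In RNA from a mixed cell fraction, more cells that express a factor and more RNA per cell cannot be told apart.

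**Figure D1:**
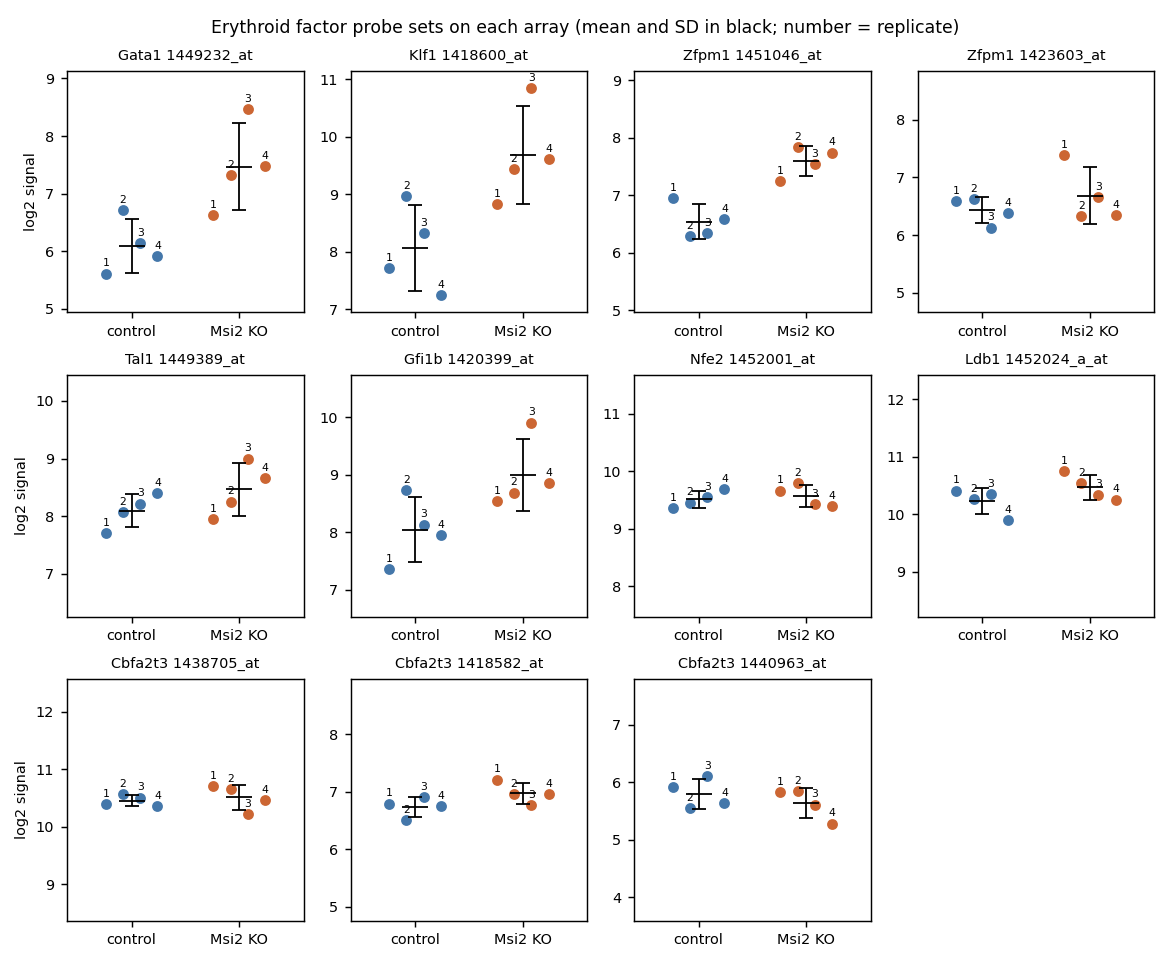
Log2 signal of each of the 11 measured probe sets of the 8 factors (vertical axis, each panel spanning the same number of log2 units around its own level) on the 4 control arrays (blue) and the 4 Msi2 KO arrays (orange), with replicate numbers and black bars for the mean and SD. Zfpm1 1451046_at separates the groups without overlap, and in Gata1, Klf1 and Gfi1b the array Msi2 KO 3 is highest.

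Gata1 is the lead factor of the set, and its single probe set, 1449232_at, read 5.61, 6.72, 6.14 and 5.91 (log2 signal) on control 1 to 4. On Msi2 KO 1 to 4 it read 6.63, 7.32, 8.46 and 7.47. 3 of the 4 KO arrays lay above the highest control array, while Msi2 KO 1 lay just below control 2. The means were 6.10 ± 0.47 in control and 7.47 ± 0.76 in KO (SD, n = 4 each). The log2 difference was 1.37 with a 95% confidence interval of 0.53 to 2.22, a 2.59-fold higher signal in KO. The limma unadjusted p was 0.00502 (rank 324 of all probe sets) and the adjusted p 0.372. The exact permutation test, two-sided here and throughout, gave a p of 0.0571. The smallest p that 4 arrays against 4 can give is 0.0286. Without Msi2 KO 3 the difference was 1.04. Gata1 lies on the X chromosome, and its difference was 1.36 within the low-Xist arrays and 1.71 within the high-Xist arrays. Here and for the other factors the low-Xist value rests on 1 control array, control 1, the lowest of all arrays for Gata1.

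FOG1, the partner of GATA1, is encoded by Zfpm1, and its brighter probe set 1451046_at read 6.95, 6.29, 6.34 and 6.59 on control 1 to 4. On Msi2 KO 1 to 4 it read 7.25, 7.84, 7.54 and 7.74. This was the member probe set without overlap, as the lowest KO array exceeded the highest control array. The difference was 1.05 (95% confidence interval 0.61 to 1.49), which is 2.07-fold, with a limma unadjusted p of 0.000386 (rank 26), an adjusted p of 0.291 and an exact permutation p of 0.0286. It did not rest on Msi2 KO 3, since the difference without that array was 1.07. Within the Xist classes it was 0.60 (low) and 1.23 (high). The second Zfpm1 probe set, 1423603_at, did not show it: the log2 signals were 6.59, 6.63, 6.13 and 6.38 in control and 7.39, 6.33, 6.66 and 6.34 in KO. There Msi2 KO 1 was highest and Msi2 KO 2 and 4 lay within the control range. The difference of 0.25 had an interval of -0.31 to 0.80 and an adjusted p of 0.795, so the 2 probe sets of this gene disagree, with intervals that overlap between 0.61 and 0.80.

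Klf1, the erythroid Krüppel-like factor, had the largest difference of the 8. Probe set 1418600_at read 7.72, 8.96, 8.33 and 7.25 on control 1 to 4 and 8.83, 9.43, 10.85 and 9.61 on Msi2 KO 1 to 4. As for Gata1, Msi2 KO 3 was highest, Msi2 KO 4 next, and Msi2 KO 1 lay below control 2. The difference was 1.61 (95% confidence interval 0.56 to 2.67), which is 3.06-fold, with a limma adjusted p of 0.378 and an exact permutation p of 0.0571. It was 1.23 without Msi2 KO 3, 1.41 within the low-Xist arrays and 2.05 within the high-Xist arrays. By size alone 14 of the 10720 genes had a larger difference. The spread among control arrays was wide, since the control SD of 0.75 exceeded that of 97.5% of genes.

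Gfi1b, the repressor of the same lineage, followed the pattern of Gata1 with a smaller difference. Probe set 1420399_at read 7.37, 8.73, 8.14 and 7.95 on control 1 to 4 and 8.54, 8.69, 9.91 and 8.86 on Msi2 KO 1 to 4. Only Msi2 KO 3 and 4 exceeded control 2, so the groups overlapped. The difference was 0.95 (95% confidence interval 0.15 to 1.75), which is 1.94-fold, with a limma unadjusted p of 0.0245, an adjusted p of 0.459 and an exact permutation p of 0.0857. Without Msi2 KO 3 it was 0.65, and the unadjusted p was then 0.0560.

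Tal1, the basic helix-loop-helix factor of the complex, read 7.71, 8.07, 8.22 and 8.39 on control 1 to 4 (1449389_at). On Msi2 KO 1 to 4 it read 7.95, 8.25, 8.999 and 8.66. Msi2 KO 3 and 4 exceeded every control array, and Msi2 KO 1 and 2 lay inside the control range. The difference of 0.37 had an interval of -0.19 to 0.92 (adjusted p 0.663, exact permutation p 0.257), and it was 0.19 without Msi2 KO 3. With the Xist class as a covariate in limma it was 0.53, at an unadjusted p of 0.00931.

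Ldb1, the linker that brings distant control regions to promoters, had a control SD near the middle of all genes. Its probe set 1452024_a_at read 10.42, 10.26, 10.35 and 9.90 in control and 10.75, 10.54, 10.34 and 10.26 in KO. Msi2 KO 1 and 2 lay above the controls and Msi2 KO 3 and 4 among them. The difference was 0.24, with an interval of -0.14 to 0.62 (adjusted p 0.682).

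Cbfa2t3, the corepressor ETO2, has 3 measured probe sets, and its brightest, 1438705_at, read 10.40, 10.57, 10.51 and 10.36 in control and 10.71, 10.66, 10.23 and 10.46 in KO. The difference was 0.06, with an interval of -0.27 to 0.38 (adjusted p 0.935). Msi2 KO 3, the highest array for Gata1, was the lowest of all 8 here. The dimmer probe set 1418582_at gave 0.24 (interval -0.09 to 0.57) and 1440963_at gave -0.16 (interval -0.57 to 0.26). The intervals of all 3 include 0 and exclude the size seen for Gata1.

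Nfe2, the p45 subunit of NF-E2, read 9.36, 9.46, 9.55 and 9.69 in control and 9.67, 9.80, 9.43 and 9.40 in KO (1452001_at). The KO arrays split, with Msi2 KO 3 and 4 near the lowest control and Msi2 KO 2 above the highest. The difference of 0.06 had an interval of -0.27 to 0.39 (adjusted p 0.928, exact permutation p 0.657).

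**Figure D2:**
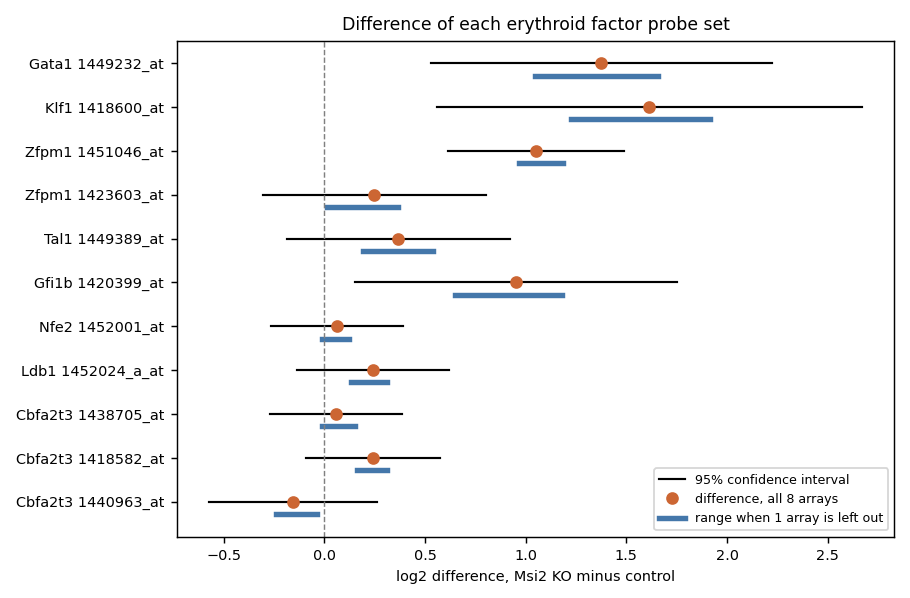
Log2 difference, Msi2 KO minus control, of each of the 11 probe sets (horizontal axis), as a point with its 95% confidence interval (black line) and the range when each array is left out in turn (blue bar). The intervals of Gata1, Klf1, Zfpm1 1451046_at and Gfi1b lie above 0, and those of the other 7 probe sets include 0.

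The factors did not all rank the arrays alike. For Gata1, Klf1 and Gfi1b the arrays ranked Msi2 KO 3, then Msi2 KO 4, at the top, and control 2 was the highest of the controls. For Ldb1 and 1438705_at of Cbfa2t3 Msi2 KO 1 was highest. On the KO arrays Msi2 signal ran from Msi2 KO 1 (72.6% of control) through Msi2 KO 2 (63.4%) and Msi2 KO 4 (40.5%) to Msi2 KO 3 (15.1%), and Gata1, Klf1, Gfi1b and Tal1 were higher at each step. Zfpm1, Nfe2, Ldb1 and Cbfa2t3 did not follow that order. With 4 arrays, of which Msi2 KO 3 also stood apart on the first principal component, this is a description of the arrays and carries no test.

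**Figure D3:**
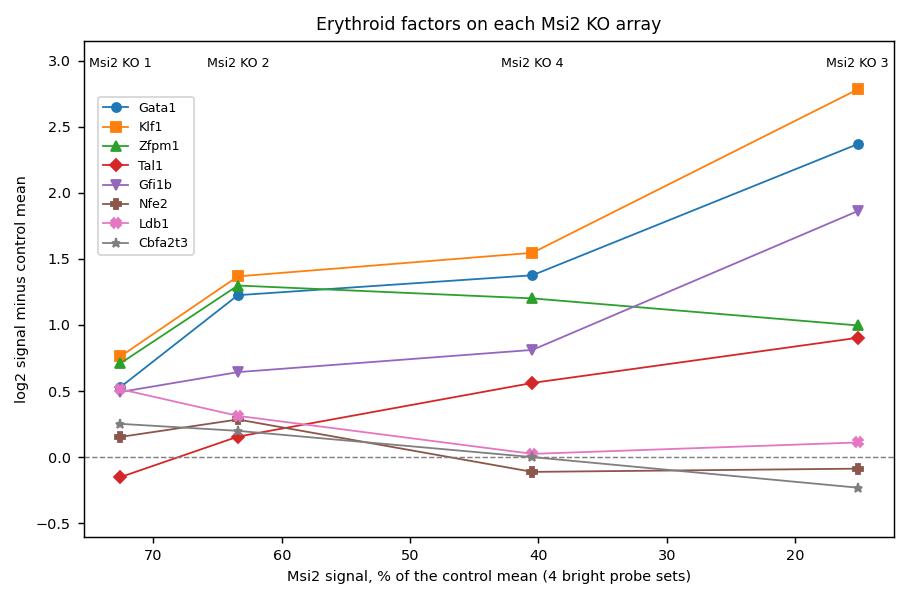
Log2 signal of each factor (brightest probe set) minus its control mean on each Msi2 KO array (vertical axis) against the Msi2 signal of that array in percent of the control mean (horizontal axis, falling from left to right, 4 bright probe sets). Gata1, Klf1, Gfi1b and Tal1 are higher at each step from 72.6% to 15.1%, and Zfpm1, Nfe2, Ldb1 and Cbfa2t3 are not.

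Likeness was measured as the root mean square difference over the 8 arrays between log2 signals, each centred on its own mean. Among the factors, Gata1 was nearest to Gfi1b (0.276) and to Klf1 (0.296). Nfe2 and Cbfa2t3 were close together (0.144), because both varied little, and Klf1 and Nfe2 were farthest apart (1.10). Within the control arrays alone Klf1, Gfi1b and Gata1 already varied more than most genes, with control SDs above those of 97.5%, 93.1% and 88.0% of the 10720 genes. The share was 66.6% for Zfpm1, 64.8% for Tal1, 49.7% for Ldb1, 24.4% for Nfe2 and 11.9% for Cbfa2t3. Among the controls, control 2 lay at the top and control 1 or control 4 at the bottom of the 3 variable factors. For Zfpm1 1451046_at, in contrast, control 1 was the highest and control 2 the lowest of the controls.

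Outside the 8 factors, the genes whose pattern over the 8 arrays was most like that of Gata1 were Stx11, a syntaxin (0.231), Blvrb, a biliverdin reductase of red cells (0.278), Ank1, the ankyrin of the red cell membrane (0.292), Cyth3, an exchange factor for ARF proteins (0.293), and Car1, a carbonic anhydrase of red cells (0.307). The median over all genes was 0.905. Blvrb read 6.80, 7.79, 7.54 and 6.88 in control and 8.58, 8.72, 9.80 and 8.78 in KO. Its groups did not overlap. Car1 read 9.02, 10.997, 10.55 and 9.52 in control and 10.44, 11.21, 12.38 and 11.53 in KO. In both genes control 1 was the lowest array and Msi2 KO 3 the highest, as in Gata1. Both were picked for their likeness to Gata1, so the shared array order and the higher means in KO are no separate result. The genes nearest to the mean of the 8 factors were Cep290 (0.111), Nomo1 (0.117), Bop1 (0.120), Cenpa (0.128) and Psmd11 (0.129), against a median of 0.483 over all genes.

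The shift of Gata1 was set against factors that precede or oppose it, as a difference of log2 signals within each array. Gata2 itself differed by 0.03 (interval -0.32 to 0.39, adjusted p 0.970). Gata1 minus Gata2 was -4.38 ± 0.50 in control and -3.04 ± 0.83 in KO (SD, n = 4 each). The difference between the groups was 1.34, with 3 of 4 KO arrays above the highest control and an exact permutation p of 0.0571 (0.0857 after Benjamini-Hochberg adjustment over the 3 ratios). The level of such a ratio has no meaning of its own because it sets 1 probe set against another, and only its shift between arrays is read. Spi1, which encodes the myeloid factor PU.1, differed by 0.14. Gata1 minus Spi1 went from -1.92 ± 0.58 in control to -0.69 ± 1.08 in KO, a difference of 1.23 (exact permutation p 0.0857, adjusted 0.0857). Fli1, the megakaryocyte factor that opposes KLF1, was 9.15 to 9.31 in control and 8.24 on Msi2 KO 3 against 9.23 to 9.33 on the other KO arrays. Klf1 minus Fli1 went from -1.17 ± 0.73 to 0.65 ± 1.33, a difference of 1.82 (exact permutation p 0.0571, adjusted 0.0857). Without Msi2 KO 3 the 3 differences were 0.98, 0.74 and 1.17.

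**Figure D4:**
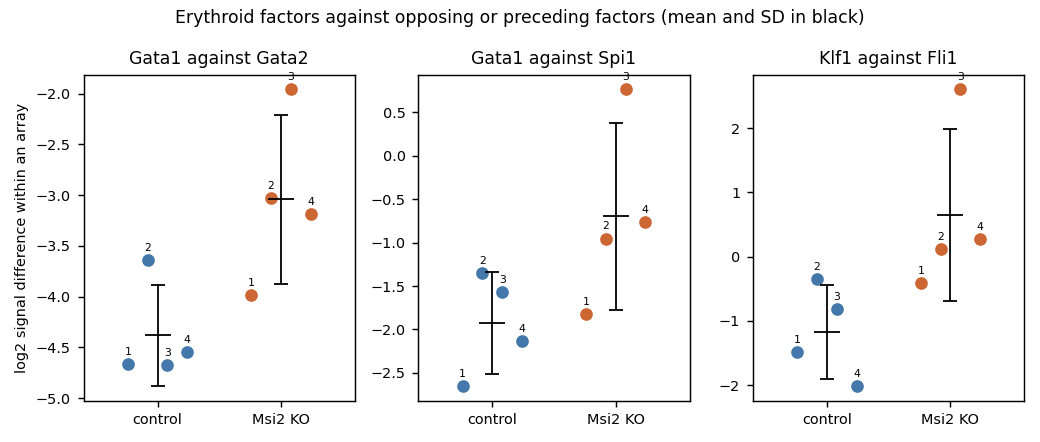
Log2 signal of Gata1 minus Gata2, Gata1 minus Spi1 and Klf1 minus Fli1 within each array (vertical axes) for the 4 control arrays (blue) and the 4 Msi2 KO arrays (orange), with replicate numbers and black bars for the mean and SD. In each panel Msi2 KO 2, 3 and 4 lie above the highest control array and Msi2 KO 1 lies below it.

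The proteins that act with these factors are described by lists, with each gene read on its brightest probe set. Over all 10720 genes 5.6% were higher and 5.5% lower in KO at an unadjusted p under 0.05, 3.63% had every KO array above every control array, 3.48% every KO array below, and the median difference was 0.00. In every list 0 genes passed the adjusted threshold. Of 16 partners of the TAL1 and LDB1 complex, 8 were higher and 8 lower in KO, 0 of them at an unadjusted p under 0.05, with a median difference of 0.01. Lmo2, the bridge between TAL1 and LDB1, differed by -0.16 (adjusted p 0.746) and Tcf3, an E protein gene, by 0.22 (adjusted p 0.862). E2f4 differed by 0.32 (adjusted p 0.608) and Ssbp3, which binds LDB1, by 0.21 (adjusted p 0.635). Of 24 listed corepressors of the NuRD and CoREST complexes, 21 were measured, with 9 higher and 12 lower and a median of -0.04. Ctbp1, a corepressor bound by FOG1, differed by 0.50 (adjusted p 0.396) and Rcor1, the CoREST scaffold used by GFI1B, by 0.54 (adjusted p 0.507), and these were the 2 higher at an unadjusted p under 0.05 (1 without Msi2 KO 3). The 1 lower at that level (0 without Msi2 KO 3) was Rcor2, the relative of Rcor1, at -0.49 (adjusted p 0.514), named after its value was seen. Kdm1a, which encodes LSD1, differed by 0.01 (adjusted p 0.991).

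Of 8 partners and relatives of NF-E2, 4 were higher and 4 lower, 0 at an unadjusted p under 0.05. Mafk, a small MAF partner, differed by -0.05, Maff by 0.66 and Nfe2l1, a related factor, by -0.29 (adjusted p 0.966, 0.639 and 0.598). Of 20 other factors of red cell formation 19 were measured, 9 higher and 10 lower with a median of -0.02 (0.10 without Msi2 KO 3). Klf13 (0.54, adjusted p 0.454) and Stat5a, a factor downstream of the erythropoietin receptor (0.33, adjusted p 0.475), were the 2 at an unadjusted p under 0.05. In all these lists of partners the medians lay between -0.04 and 0.01, while the 8 factors had a median of 0.66 on the same reading. That median falls in a gap, with 4 factors at 0.06 to 0.37 and 4 at 0.95 to 1.61. Without Msi2 KO 3 it was 0.47, and the medians of the partner lists lay between -0.06 and 0.10. Whether the lists differ from the factors was not tested.

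Genes that the factors are known to act on in red cells had mostly higher means in KO. Of 59 listed erythroid target genes 41 were measured, 10 were listed at 0 and 8 were not analysed here. 38 of the 41 had a higher mean in KO against 50.4% of all genes. At an unadjusted limma p under 0.05, 12 were higher (5.6% of all genes) and 1 lower (5.5%). The lower one was Bcl2l1, the survival gene encoding BCL-XL, at -0.69, named after its value was seen. In 2 of the 41 every KO array lay above every control array (3.63% of all genes), and in 1 below (3.48%). The median difference was 0.55. Pklr, the pyruvate kinase of red cells and liver, differed by 1.82 (adjusted p 0.408) and Blvrb by 1.72 (adjusted p 0.291). Without Msi2 KO 3 the list gave 32 higher (49.7% of all genes) and 9 lower, with 7 higher at an unadjusted p under 0.05 (4.63% of all genes) and a median of 0.33. With the Xist class as a covariate 22 were higher at that level (7.06% of all genes).

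Msi2 KO 3 was the highest of the 8 arrays in 33 of the 41 target genes (80.5%, against 23.1% of all genes). Among the controls, control 2 was highest in 26 (63.4%, against 23.0%). The erythropoietin receptor gene Epor, a GATA1 target, shows this spread. It read 5.05, 7.54, 7.52 and 5.58 in control and 6.32, 7.74, 9.60 and 7.85 in KO, so the groups overlapped widely (difference 1.46, interval -0.26 to 3.17, adjusted p 0.574). Some genes of late red cells gave no such reading. Alas2, the first enzyme of haem synthesis in red cells, was listed at 0 on every array, as were Hba-a1 and Sptb. Hba-a2, an alpha globin gene, differed by -0.12 (adjusted p 0.802), and Slc4a1, the band 3 anion exchanger, read 3.57 to 4.30 over all arrays, near the 3.36 to 3.62 that the Y-linked gene Eif2s3y gave on the 5 high-Xist arrays.

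**Figure D5:**
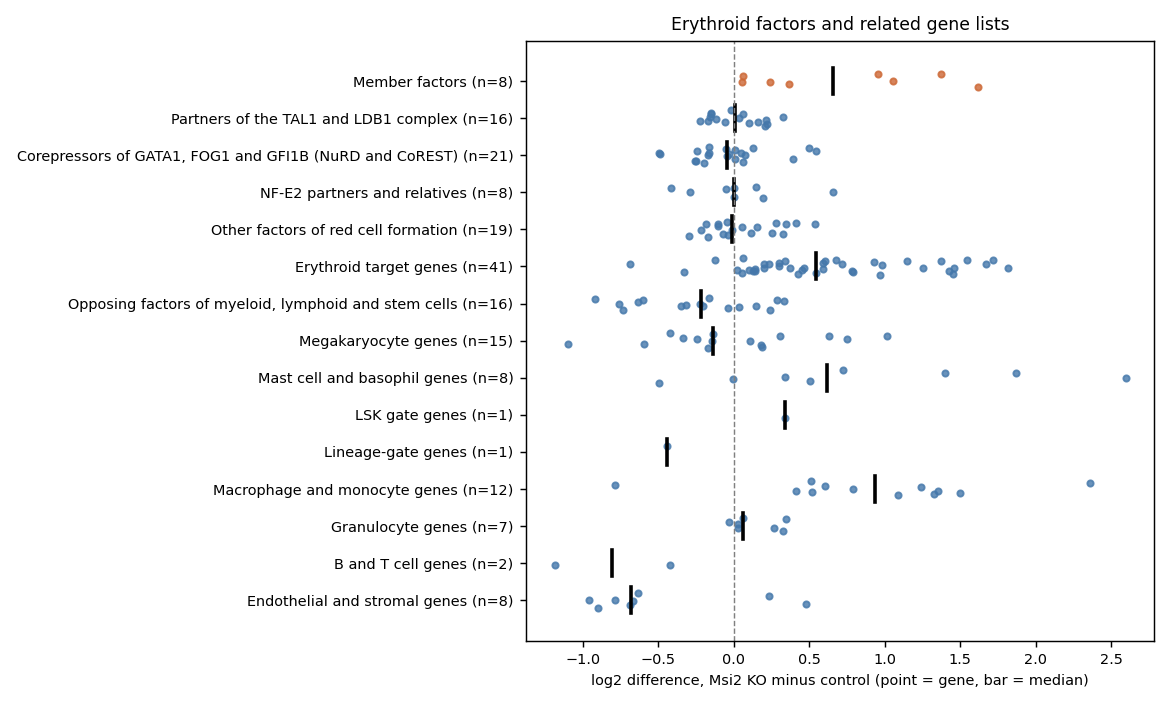
Log2 difference, Msi2 KO minus control, of each measured gene (1 point, brightest probe set) in the 8 factors (orange) and in 14 related lists (blue), with the number of genes in brackets and a black bar at the median. The partner lists centre near 0, while the 8 factors (median 0.66) and the 41 erythroid target genes (0.55) lie mostly above it.

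Markers of other cells are given here beside the factors; 0 passed the adjusted threshold, the summed signals of the mast cell, macrophage and megakaryocyte lists overlapped between the groups, and their part in the results on the factors was not tested. Of 15 mast cell and basophil genes, cells that also use GATA1, 8 were measured and 6 had a higher mean in KO (50.4% of all genes). At an unadjusted limma p under 0.05, 4 were higher (5.6% of all genes) and 0 lower (5.5%). In 2 of the 8 every KO array lay above every control array (3.63% of all genes). The summed linear signal of the 8 was 651 to 1197 on the control arrays and 990 to 1702 on the KO arrays. Mcpt4, Mcpt1, Tpsab1, Cma1 and Gzmb were listed at 0. Cpa3, a mast cell protease, differed by 1.87 (adjusted p 0.323) and Fcer1a, a chain of the IgE receptor, by 2.60 (adjusted p 0.199). Of 16 macrophage and monocyte genes 12 were measured, and 11 had a higher mean in KO. At an unadjusted limma p under 0.05, 3 were higher (5.6% of all genes) and 1 lower (5.5%). Without Msi2 KO 3, 6 were higher at that level (4.63% of all genes). In 1 of the 12 every KO array lay above every control array (3.63% of all genes), and in 1 below (3.48%). The summed signal of the 12 was 1921 to 3479 in control and 2381 to 4531 in KO, with Cd14, C1qa, C1qc and Timd4 at 0. Cd68 differed by 1.09 (adjusted p 0.334) and Lyz2, the bright lysozyme gene, by -0.79 (adjusted p 0.372).

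Megakaryocyte genes share GATA1, FOG1, TAL1, GFI1B and NF-E2 with red cells. Of 22 listed, 15 were measured, 7 higher and 8 lower with a median of -0.14, and Gp1bb, Gp6, Gp9, Treml1 and Tubb1 were at 0. At an unadjusted limma p under 0.05, 1 was higher (5.6% of all genes) and 3 lower (5.5%). Without Msi2 KO 3 it was 1 in each direction. In 2 of the 15 every KO array lay below every control array (3.48% of all genes), and in 0 above (3.63%). The summed signal of the 15 was 3152 to 5106 in control and 3528 to 7247 in KO. Selp, the platelet selectin, differed by -1.10 (adjusted p 0.400) and P2rx1, a platelet ATP receptor, by -0.60 (adjusted p 0.466). Without Msi2 KO 3 the median was 0.11, so its sign rests on that array.

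Of 21 factors that hold other fates, 16 were measured, 5 higher and 11 lower in KO, with a median of -0.21 (-0.08 without Msi2 KO 3). In 3 of them every KO array lay below every control array (3.48% of all genes). Mycn, a MYC family factor of stem cells, differed by -0.92 (adjusted p 0.291) and Gfi1, the stem and myeloid relative of Gfi1b, by -0.60 (adjusted p 0.372). Gfi1 thus differed in the direction opposite to Gfi1b on the same arrays, and the difference between the genes was not tested.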

How the data were processed

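The deposited log2 signals per probe set were used as the authors made them. They are RMA values per the submitters' processing notes, which implies quantile normalization across arrays, and no version is given in the sources used here. Of 45101 probe sets, 20664 (45.8%) were exactly 0 on all 8 arrays, by a step not stated, and were left out with 33 measured AFFX control rows. Values above 0 ran from 2.79 to 14.2 and array medians from 7.03 to 7.08. The number of arrays limits the precision. Probe sets were named from the platform annotation, brought to current symbols through gene IDs with a RefSeq table (GRCm38.p6, names only): 34958 carried 1 gene, 932 several and 9211 none.

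The groups were compared with limma 3.58.1 in R 4.3.3 (lmFit, eBayes, two-sided) on 24404 probe sets with Benjamini-Hochberg adjustment, and single values by exact permutation of the 70 array assignments. Every adjusted p without another name is limma's. A gene is read on its probe set with the highest mean. All probe sets of the 8 factors are named, with the 5 genes most like Gata1 and like the factors' mean, the 2 genes of smallest p per list and a fixed set of related genes. Members and lists were chosen with earlier results of these data known. The series' text says the arrays came from separate mice. Samples of the same replicate number showed little correlation (correlations of deviations 0.13, -0.12, 0.08 and -0.04 by number), which cannot exclude a pairing. On simulated data of the same 24404 rows, 200 changed probe sets were recovered at 45.0% for a log2 change of 1 and at 87.0% for 2. False calls numbered 3 and 16. The noise was drawn independently for each row, without the differences among arrays seen here, and the changed rows were random. These rates therefore do not give the recovery for the 8 factors.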

Additional observations from a re-analysis of the deposited data

Results flagged for a closer look

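The log2 ratio of Gata1 to Gata2 was flagged because 1 control array stood far from the others of its group. Control 2 read -3.64, while the other control arrays read -4.67, -4.67 and -4.54. Its gap to the nearest control was 0.875 of the whole range of the group, above Dixon's 95% critical value for 4 samples. Among 28 groups tested, chance alone flags about 1 in 20. The same array was also the highest control for Gata1, which is part of this ratio, and for Klf1 and Gfi1b. It was so too for Car1, a gene picked for its likeness to Gata1. Without it the difference between the groups was 1.59 in place of 1.34.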

How the results depend on the processing

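Of the 11 member probe sets 0 passed the adjusted threshold under any setting. Over all probe sets the count past it was 0 in the main analysis, 1 after repeated quantile normalization, without probe sets below the median level or with array weights, 2 with an intensity trend and robust prior, and 0 to 1 with each array left out. The median difference of the member probe sets, 0.25, was 0.37 without dim probe sets, 0.66 by brightest probe set per gene, 0.51 by mean per gene, 0.15 on the high-Xist arrays and 0.16 to 0.36 with each array left out; fewer or other rows enter in the first 3. The count of members with every KO array above every control array, 1, was 5 on the high-Xist arrays. It was 1 to 4 with each array left out (4 without control 2, 3 without Msi2 KO 1, 2 without Msi2 KO 3). Fewer arrays make overlap rarer. Over all 24404 probe sets this count went from 762 to 3927 on the high-Xist arrays, where 1 member and 3463 probe sets lay wholly below. It was 1149 without control 2, 1516 without Msi2 KO 1 and 1135 without Msi2 KO 3. The count of members higher at an unadjusted limma p under 0.05, 4, was 3 to 5 with each array left out. Differences of Gata1 ran from 1.04 to 1.66, of Klf1 from 1.23 to 1.91, of Zfpm1 1451046_at from 0.97 to 1.19 and of Gfi1b from 0.65 to 1.18 when each array was left out. Klf1 kept an unadjusted limma p under 0.05 in every setting run, and Gfi1b in 16 of 20. Zfpm1 kept it in every setting run, on 1451046_at or, by mean per gene, on the mean of its probe sets (difference 0.65). Gata1 kept it in all 19 settings that held it. Its probe set lay below the median level and was left out with the dim probe sets. Differences near 0 changed sign. Cbfa2t3 1438705_at was -0.13 on the high-Xist arrays and ran from -0.010 (without Msi2 KO 1) to 0.15. Nfe2 was -0.15 on the high-Xist arrays and ran from -0.015 (without Msi2 KO 2) to 0.12. The cause was not tested. With each array left out the ratios ran from 0.98 to 1.66 (Gata1 to Gata2), 0.74 to 1.61 (Gata1 to Spi1) and 1.17 to 2.17 (Klf1 to Fli1). With the replicate number as a block the counts stayed at 0 past the threshold and 4 members at an unadjusted p under 0.05, and each ratio had an exact p of 0.125, the smallest that design allows. 3 of 8 arrays correlated best with their own number. List counts without Msi2 KO 3 and with the Xist class were added after seeing the data.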

Other observations

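Lists of other cells that LSK sorting should remove, or that share genes with stem cells, gave these values on the brightest probe set of each gene. Of 13 granulocyte genes 7 were measured, 6 higher and 1 lower in KO, with 0 at an unadjusted p under 0.05 in limma and a median log2 difference of 0.06. Prtn3, a protease of early granulocytes, differed by 0.27 (adjusted p 0.777) and S100a8 by 0.35 (adjusted p 0.796), while Camp, Ltf, Mmp8, Mmp9 and Lcn2, genes of later granulocytes, were listed at 0. Of 15 B and T cell genes 10 were listed at 0, and the 2 that were measured, Vpreb1, part of the surrogate light chain (-1.19, adjusted p 0.477), and Cd79b (-0.42, adjusted p 0.512), were lower in KO, both at an unadjusted p under 0.05 with all arrays and 0 of them without Msi2 KO 3. Of 12 endothelial and stromal genes, several of which stem cells also express, 8 were measured and 6 had a lower mean in KO, 4 of them at an unadjusted p under 0.05, with a median of -0.68. Without Msi2 KO 3 the count at that level was 2 lower and 1 higher, and the median was -0.50. Robo4, a receptor of endothelium and stem cells, differed by -0.96 (adjusted p 0.378) and Tek, the angiopoietin receptor, by -0.90 (adjusted p 0.425). Kdr, Col1a1, Cxcl12 and Lepr were listed at 0. The summed linear signal of the 8 measured genes was 1022 to 1092 in control and 596 to 923 in KO. These sums did not overlap, in the direction opposite to that of Gata1, but the brightest genes weigh most in a sum. Gene by gene, 1 of the 8 had every KO array below every control array, against 3.48% of all genes. Over all genes 5.5% were lower at an unadjusted p under 0.05 in limma.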
